A study of Mus musculus with 12 samples.

Results

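The TRAF adaptor family comprised 6 genes, Traf1 to Traf6, found by name in the table of raw counts, of 545 immune genes on the panel. The counts came from microglia, the resident macrophages of the brain, isolated by Percoll gradient and FACS from hippocampi of male mice at postnatal day 28 (BALB/c, labelled Balbc). There were 6 samples of BDS pups, which were parted from their mother for 15 min daily between postnatal days 1 and 21 (brief daily separation), and 6 of control pups. All 12 pups came from different litters, and the labels name no transgene or drug in either group. Barcoded probes were counted on a NanoString nCounter immune panel after 5 rounds of PCR on cDNA, so a count is of hybridized probes and not of sequenced reads.

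TRAF proteins (TNF receptor-associated factors) are adaptors that dock on the cytoplasmic tails of activated receptors and pass the signal on to NF-kB, MAP kinases and interferon regulatory factors. Most of them carry a RING domain linked to ubiquitin chain formation, which TRAF1 lacks. TRAF2, TRAF3 and TRAF5 serve mainly receptors of the TNF receptor superfamily, such as CD40, while TRAF6 also serves the Toll-like and interleukin-1 receptors through MyD88 and IRAK kinases, a route by which macrophages and microglia sense microbial products.

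Traf6 had the largest difference between the groups among the 4 TRAF genes that could be tested, at 1286 ± 225 normalized counts in BDS and 1546 ± 123 in control microglia (SD, n = 6 each), and it did not pass the adjusted threshold. Its low values were those of BDS 21, BDS 25 and BDS 55, while the other 3 BDS samples lay within the range of the controls. Traf2, Traf3 and Traf5 were measured in every sample, with log2 fold changes between -0.08 and 0.02. Traf1 and Traf4 had low counts, near those of the negative-control probes. Traf1 was above background in 2 of 6 controls and Traf4 in 4 of 6, and each in 0 of 6 BDS samples.

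Normalized counts are counts divided by the sample's level of 6 housekeeping genes. A gene was tested where its count exceeded the mean of the negative-control probes by 2 SD in at least 5 of the 12 samples, which held for 357 of 545 genes and for 4 of the 6 TRAF genes. Total counts of the 545 genes ran from 577135 to 1103445 in BDS and from 827591 to 1341132 in control samples. BDS 21, BDS 25 and BDS 55 stood apart, with housekeeping counts of 0.590, 0.628 and 0.827 relative to the mean of all samples, against 0.847 to 1.42 in the other 9. Their ratio of Rpl19 to Polr2a counts, a pair of housekeeping genes not used for scaling, was 0.465 to 0.790, against 0.113 to 0.267 in the other 9. The microglial markers Csf1r, Cx3cr1, Itgam, Trem2, Tyrobp, C1qa, C1qb and Ctss were above background in all 12 samples. The defining markers Cd3d and Cd3e of T cells, Pax5 and Cd22 of B cells, and Cd163 of border macrophages were above background in 0 of 12. Other listed genes of these cell types were above it: Cd5 in 12, Lck in 11 and Cd4 in 6 samples (T cells), Cd79b and Blnk in 12 and Cd79a in 6 (B cells), and Ccr2 (monocytes), Klrd1, Klrk1 and Prf1 (NK cells), and Cdh5 and Pecam1 (endothelium) in all 12. Ccr2 had raw counts of 137 to 656. A probe has its own efficiency, so counts of different TRAF genes are not ranked against each other.

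The stretches around the start sites of the 6 genes, 250 bases before to 50 after, were taken from RefSeq on GRCm38.p6. The probe accessions of 5 genes were found there, and Traf3 was matched by its symbol. Those of Traf1 and Traf6 are shown because Traf1 was not measured above background in most samples and Traf6 carried the largest difference. Capitals mark CG dinucleotides, which are dense at the start sites of many broadly expressed genes. Traf1 is on the minus strand at chr2:34961723-34962022, and Traf6 on the plus strand at chr2:101678170-101678469.
Traf1: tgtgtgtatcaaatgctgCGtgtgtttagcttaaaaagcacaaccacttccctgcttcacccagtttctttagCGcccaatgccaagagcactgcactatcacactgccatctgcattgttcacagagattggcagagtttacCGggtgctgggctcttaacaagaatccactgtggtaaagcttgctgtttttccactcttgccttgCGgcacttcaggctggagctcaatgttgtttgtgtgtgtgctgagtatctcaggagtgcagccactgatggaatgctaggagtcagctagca
Traf6: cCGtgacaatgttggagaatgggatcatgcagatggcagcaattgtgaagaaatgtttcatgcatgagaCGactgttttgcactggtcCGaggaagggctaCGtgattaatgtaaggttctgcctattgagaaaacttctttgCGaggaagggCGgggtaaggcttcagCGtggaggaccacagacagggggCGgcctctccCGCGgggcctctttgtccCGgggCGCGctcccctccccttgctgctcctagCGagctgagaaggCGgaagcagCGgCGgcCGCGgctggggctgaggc

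The Traf1 stretch held 4 CG dinucleotides, and 37.7% of the 32544 such stretches of the mouse genome held as few. The Traf6 stretch held 19, against 17 in Traf5, 28 in Traf2, 33 in Traf4 and 59 in Traf3, with a median of 7 over all stretches. The motif GGGCGG (searched on both strands, also as CCGCCC) was present in 5 of the 6 genes, Traf1 excepted, and in 35.9% of all stretches. Traf4, which was also near background, thus differed from Traf1 in this respect. These are descriptions of the sequence, and no binding was measured.

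Traf6, the adaptor of the Toll-like and interleukin-1 receptors, was at 1513, 1163, 1065, 1488, 1457 and 1027 normalized counts in BDS 7, 21, 25, 35, 43 and 55. In control 5, 9, 13, 27, 44 and 54 it was at 1640, 1392, 1536, 1725, 1544 and 1440. All 6 BDS samples lay below the control mean, 3 of them below the lowest control, and the groups overlapped. The log2 fold change was -0.27 ± 0.11 (SE; edgeR quasi-likelihood test, unadjusted p = 0.035, adjusted p = 0.38 over 357 genes), which was the 33rd smallest p-value. In the authors' deposited table its mean was 1341 in BDS and 1592 in control, with a fold of 0.84 and an unadjusted p of 0.0485.

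No gene of the panel passed the adjusted threshold of 0.05 (0% of 357, edgeR). At an unadjusted p under 0.05, 11.5% of the tested genes were lower in BDS and 0.84% were higher, 41 and 3 genes, and 1 of the 4 tested TRAF genes, Traf6, was among them, a share from which nothing particular to the family can be read. With TMM, which scales to the tested genes themselves, the lower and higher genes at that level were 14 and 18, and Traf6 had a log2 fold change of -0.17 with an unadjusted p of 0.13. The median log2 fold change of all tested genes was -0.10 with housekeeping scaling and -0.0093 with TMM. Relative to that median Traf6 lay at -0.16 under both. All 6 BDS samples lay below every control for 1.12% of the tested genes, and for none of the TRAF genes. DESeq2 with the housekeeping scaling called 0 genes (46 at an unadjusted p under 0.05), and limma on log2 scaled counts called 0 (50). Without BDS 7 edgeR called 4 genes, with 96 at an unadjusted p under 0.05, and without BDS 25 or BDS 55 that count was 26 in each case.

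**Figure D1:**
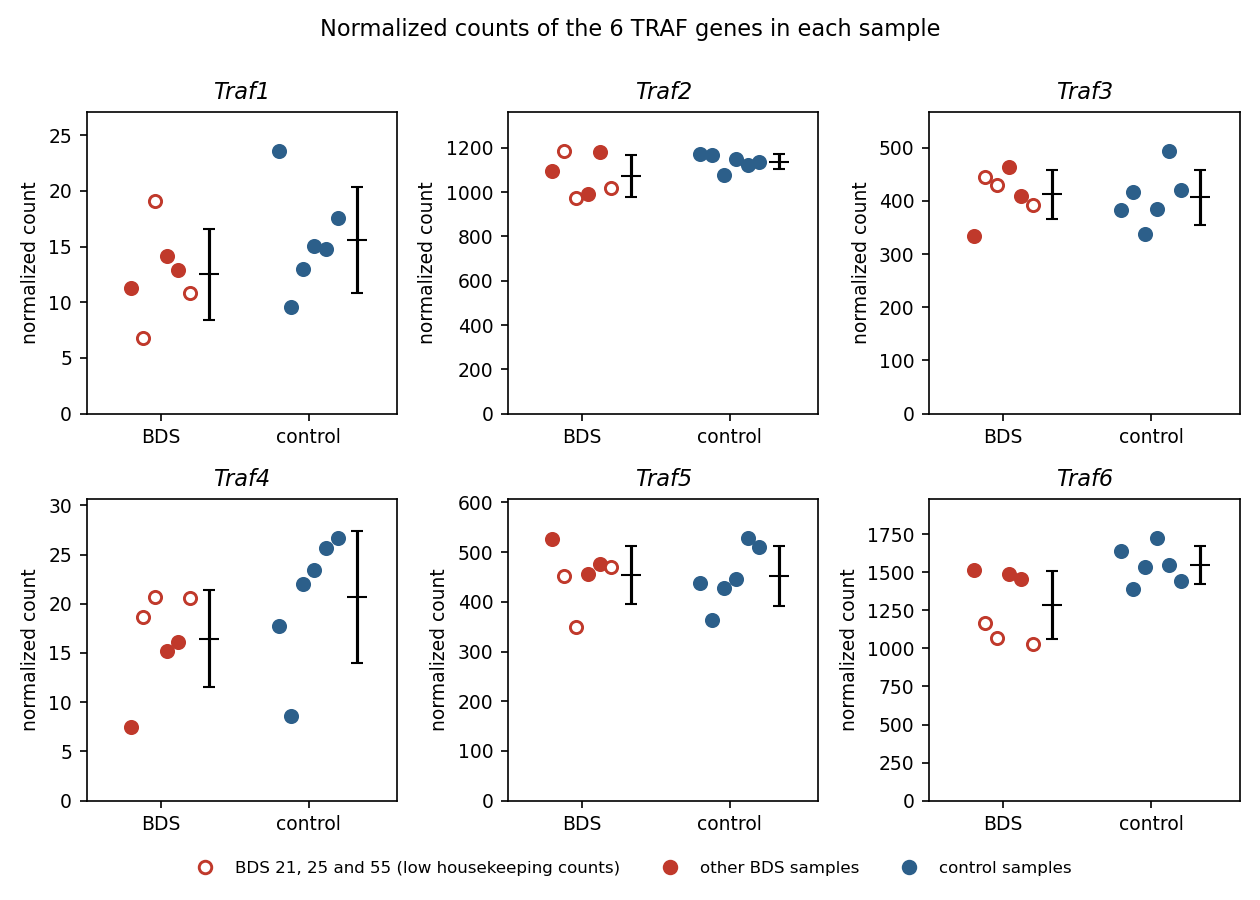
Normalized counts (y axis, from 0, a scale of its own for each gene) of Traf1 to Traf6 in the 6 BDS and 6 control samples; each point is 1 sample, in the order of sample numbers, and the bars are the mean ± SD. Open points are BDS 21, BDS 25 and BDS 55, which for Traf6 lie at 1027 to 1163, below the lowest control at 1392, while the other 3 BDS samples lie at 1457 to 1513.

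The lower mean of Traf6 lay in 3 of the 6 BDS samples, those of lowest housekeeping count. BDS 21, BDS 25 and BDS 55 averaged 1085 ± 71 normalized counts, against 1486 ± 28 in the other 3 BDS samples (SD, n = 3 each) and 1546 ± 123 in controls (SD, n = 6). On the log2 scale they differed from the control mean by -0.51, and the other 3 BDS samples by -0.053. The difference between these BDS samples was -0.46, with 40 of 357 genes lower still and a median of 0.019 over all tested genes. Without the 3 samples the log2 fold change of Traf6 was -0.057 ± 0.084 (SE; edgeR, unadjusted p = 0.51, adjusted p = 0.96). The median of all tested genes was -0.089 in that fit, below the value of Traf6. The part of low housekeeping counts or of the Rpl19 to Polr2a ratio in the lower Traf6 was not tested. In a sorted bulk sample, fewer cells with the transcript and less transcript per cell cannot be told apart.

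Ratios between TRAF genes within a sample do not depend on scaling. The log2 ratio of Traf6 to Traf2, the adaptor of TNF receptors, was 0.47, -0.027, 0.13, 0.59, 0.31 and 0.012 in BDS 7, 21, 25, 35, 43 and 55. In control 5, 9, 13, 27, 44 and 54 it was 0.49, 0.25, 0.51, 0.58, 0.46 and 0.34. The same 3 BDS samples again lay below every control, and the other 3 lay among or just above them. The log2 ratio of Traf6 to Traf3 averaged 1.63 ± 0.34 in BDS and 1.93 ± 0.24 in controls (SD, n = 6), and in those 3 samples it was 1.31 to 1.39, against 1.69 to 2.18 in the other BDS samples and 1.64 to 2.19 in controls. That of Traf6 to Traf5 averaged 1.49 ± 0.21 in BDS and 1.78 ± 0.20 in controls. Here 2 BDS samples, BDS 21 and BDS 55, fell below every control, and BDS 25, at 1.61, did not; its Traf5 count was the lowest of the 12. The ratios were not tested.

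**Figure D2:**
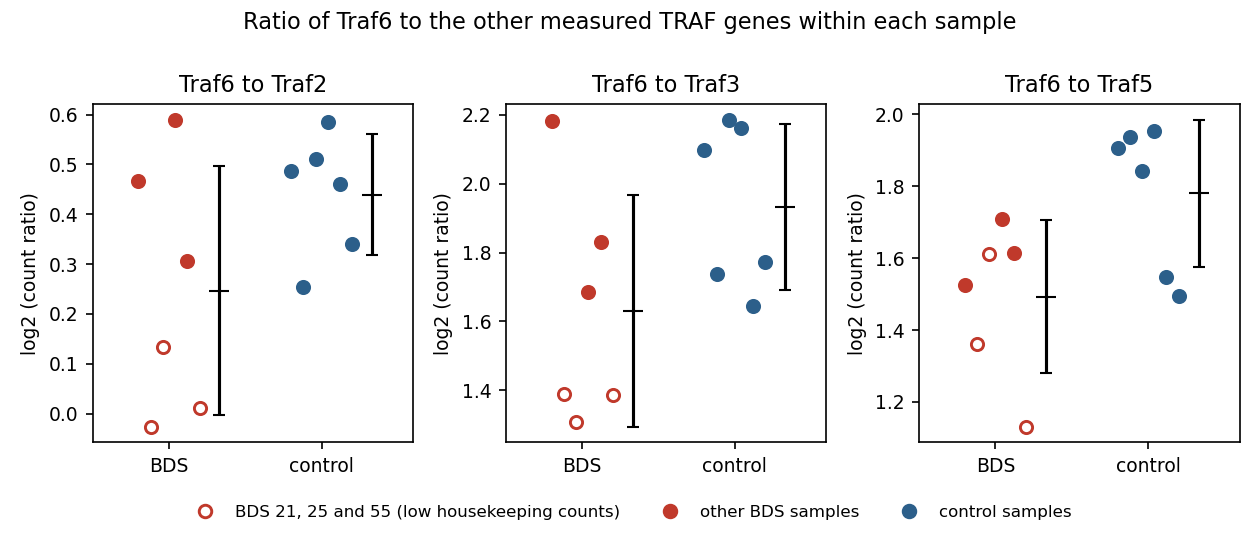
Log2 ratio of the Traf6 count to the count of Traf2, Traf3 and Traf5 (y axes, not from 0) within each of 6 BDS and 6 control samples; bars are the mean ± SD. The open points, BDS 21, BDS 25 and BDS 55, lie below every control in the ratios to Traf2 and Traf3, at -0.027 to 0.13 and at 1.31 to 1.39.

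**Figure D3:**
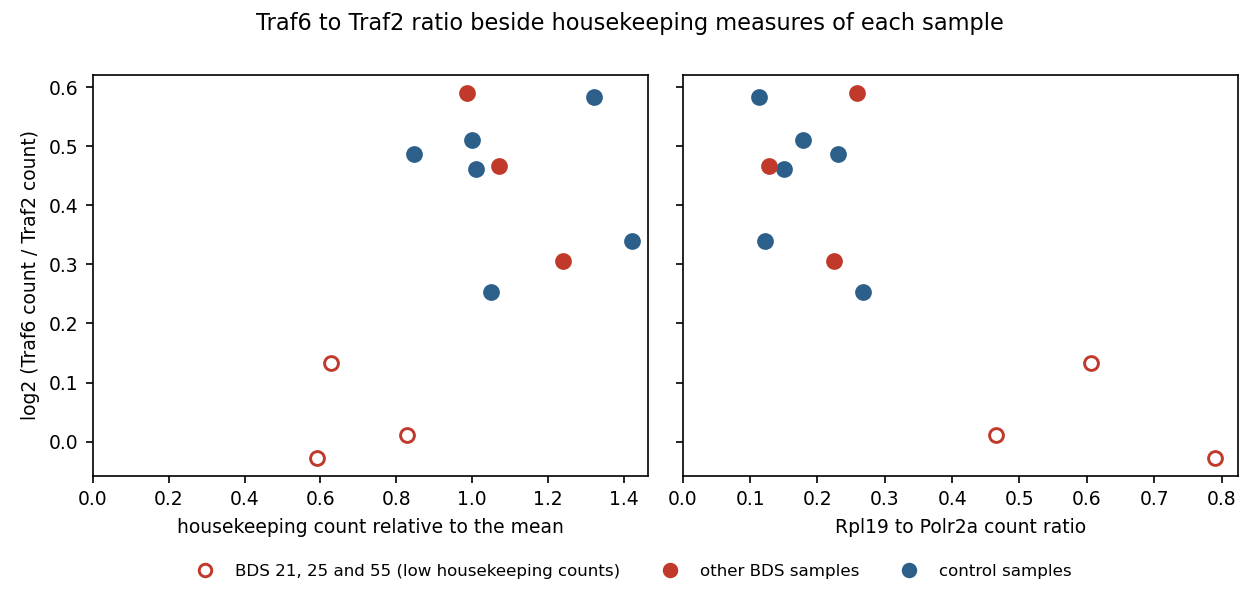
Log2 ratio of Traf6 to Traf2 counts (y axis) against the housekeeping count relative to the mean (left, x axis) and the ratio of Rpl19 to Polr2a counts (right, x axis) in the 6 BDS and 6 control samples, 1 point each. BDS 21, BDS 25 and BDS 55 lie apart from the other 9 samples in the ratio of Rpl19 to Polr2a, at 0.465 to 0.790, so no correlation is given.

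Traf2, which recruits the cIAP ubiquitin ligases to TNF receptors, had a lowest, median and highest value of 971, 1057 and 1186 normalized counts in BDS, and of 1077, 1144 and 1171 in controls. The BDS samples spread to both sides of the controls, 3 below the lowest and 2 above the highest. The coefficient of variation was 8.82% in BDS and 3.06% in controls. The log2 fold change was -0.084 ± 0.079 (SE; edgeR, adjusted p = 0.64), close to the panel median of -0.10, and it was 0.0073 with TMM.

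Traf3, which restrains non-canonical NF-kB and takes part in type I interferon induction, had 334, 420 and 463 normalized counts in BDS (lowest, median, highest) and 338, 402 and 494 in controls. The groups overlapped over nearly their whole range. The log2 fold change was 0.019 ± 0.11 (SE; edgeR, adjusted p = 0.93), and -0.016 without BDS 21, BDS 25 and BDS 55.

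Traf5, a close relative of Traf2 in TNF receptor signalling, had 349, 462 and 526 normalized counts in BDS and 363, 442 and 529 in controls. BDS 25 was the lowest of all 12 samples and the only BDS sample below the lowest control. The log2 fold change was 0.0084 ± 0.12 (SE; edgeR, adjusted p = 0.96).

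Traf1, which is induced by NF-kB and lacks the RING domain, had raw counts of 4 to 16 in BDS and 10 to 25 in control samples, where the limit set by the negative controls was 18.2 to 21.8 and 15.3 to 21.3 counts. It exceeded the limit in 0 of 6 BDS samples and in 2 of 6 controls, control 5 and control 54. Traf4, a member better known from developing epithelia than from immune cells, had raw counts of 8 to 20 in BDS and 9 to 38 in controls, and exceeded the limit in 0 of 6 BDS samples and 4 of 6 controls. Its normalized counts were 16.4 ± 4.9 in BDS and 20.7 ± 6.7 in controls (SD, n = 6). Neither gene passed the filter for the reported test of 357 genes. With no filter on low counts, their log2 fold changes were -0.30 ± 0.245 for Traf1 and -0.38 ± 0.28 for Traf4. The adjusted p-values over 545 genes were 0.65 and 0.62 (SE; edgeR). The authors' deposited table gives 17% of samples above background for Traf1 and 58% for Traf4, with a fold of 0.81 for each and unadjusted p-values of 0.277 and 0.262. With the genes that table counts as present tested in place of the 357, Traf4 had a log2 fold change of -0.38 ± 0.28 (SE; edgeR, adjusted p = 0.53).

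Other genes of the TRAF pathways were taken as lists, described by their counts beside the panel, where 236 of 357 genes had log2 fold changes below 0. That number was 186 with TMM and 260 without BDS 21, BDS 25 and BDS 55. No listed gene passed the adjusted threshold. Upstream of Traf6, the list of Toll, interleukin-1 and interleukin-17 receptors with their adaptors held 19 tested genes, of which 14 had log2 fold changes below 0 and 5 were at an unadjusted p under 0.05, all lower in BDS, where 11.5% of all tested genes were lower at that level. With TMM 14 were again below 0, against 186 of 357 for the panel. At that level 3 were then lower and 1 higher, against 14 and 18 for the panel. The list's median was -0.088 with TMM, against -0.0093 for the panel. With housekeeping scaling its median log2 fold change was -0.19, against -0.10 for the panel. Tlr9, a sensor of unmethylated DNA, had 3183 to 3602 normalized counts in BDS 21, BDS 25 and BDS 55, 4513 to 5183 in the other BDS samples and 5136 to 5791 in controls. Tlr3, a sensor of double-stranded RNA, and Tlr5, the flagellin receptor, had log2 fold changes of -0.39 ± 0.12 and -0.36 ± 0.13 (SE; edgeR, adjusted p = 0.25 for each). Without those 3 BDS samples 11 of the 19 genes were below 0, at a median of -0.041 against -0.089 for the panel, and 1 was at an unadjusted p under 0.05. The summed normalized count of the 21 listed genes on the panel, 2 of them untested, was 20317 to 22574 in those 3 samples, against 27947 to 29793 in the other BDS samples and 28583 to 31946 in controls. In the same 3 samples the summed microglial markers were at 331622 to 382159, above the 283749 to 285498.5 of the other BDS samples and the 281962 to 325081 of controls. The markers did not move together there. Csf1r and Ctss averaged 119728 and 105840 in those 3 samples. They averaged 82094 and 83320 in the other BDS samples and 87685 and 90007 in controls. Trem2, Tyrobp and C1qb averaged 14238.5, 4490 and 32146 in those 3 samples. They averaged 10345, 3247 and 21390 in the other BDS samples and 11074, 3373 and 23942 in controls. C1qa averaged 32750 in those 3 samples, 28997 in the other BDS samples and 33156 in controls. Itgam averaged 34039 in those 3 samples, against 41060 in the other BDS samples and 41231 in controls. Cx3cr1 averaged 13562 in those 3 samples, against 14184 in the other BDS samples and 14997 in controls. The sums of other cell types are over all listed genes on the panel, those not tested for low counts included. The B cell list (8 genes, 4 tested) summed to 4697 to 5292 in those 3 samples, 3953 to 4601 in the other BDS samples and 4044 to 4575 in controls. The endothelial list (3 genes, all tested) summed to 959 to 1041 there, 1050.1 to 1344 in the other BDS samples and 989 to 1396 in controls. The T cell list (8 genes, 3 tested) summed to 141.5 to 188 in those 3 samples. It summed to 102 to 148 in the other BDS samples and 110.3 to 166 in controls. The NK cell list (4 genes, 3 tested) summed to 228 to 294 in those 3 samples. It summed to 200.2 to 250 in the other BDS samples and 200.3 to 470.3 in controls. The neutrophil list (4 genes, 1 tested) summed to 31.9 to 70.04 in BDS and 23.6 to 141 in controls. The monocyte and border macrophage list (4 genes, 2 tested) summed to 279.8 to 314 in those 3 samples, below all other samples. It summed to 332 to 488 in the other BDS samples and 320.4 to 530.0 in controls. Icam5 with Mbp, from neurons and oligodendrocytes, summed to 117 to 189.5 in BDS and 127.5 to 251 in controls. The part of these marker levels in the lower Toll and Traf6 values was not tested.

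The receptors and ligands of the TNF family act mainly, but not only, through Traf2, Traf3 and Traf5. With all samples their medians were nearer 0 than that of the Toll list, and the ligands lay close to the panel median of -0.10. Of 9 tested receptors 5 were below 0, or 4 with TMM, at a median of -0.035, and Tnfrsf13b, the receptor TACI of B cells, was the 1 receptor at an unadjusted p under 0.05. It had 22.3 to 66.2 normalized counts in BDS and 24.2 to 30.5 in controls, close to background. Cd40 was not above background in enough samples to be tested. Of 10 tested ligands 6 were below 0, at a median of -0.099 and with 0 at an unadjusted p under 0.05. With TMM the ligand median was -0.012, against -0.0093 for the panel. Tnfrsf11a, the receptor RANK that signals through TRAF6, had 574 ± 260 normalized counts in BDS and 699 ± 183 in controls (SD, n = 6; edgeR, adjusted p = 0.60).

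Of the partners and regulators of TRAF proteins only 4 listed genes were on the panel. Tnfaip3, the deubiquitinase A20 that removes the chains built by TRAF6, had 760.3 ± 185 normalized counts in BDS and 992 ± 218 in controls (SD, n = 6). Its log2 fold change was -0.38 ± 0.17 (SE; edgeR, unadjusted p = 0.042, adjusted p = 0.38), and it was at 575 to 690 in BDS 21, BDS 25 and BDS 55, against 770 to 1027 in the other BDS samples and 715 to 1362 in controls. Casp8 and Card9 had log2 fold changes of -0.066 and 0.17.

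Downstream, 7 of 9 NF-kB and IKK genes were below 0, at a median of -0.086. Nfkb1, the precursor of the p50 subunit, had 3162 ± 510 normalized counts in BDS and 3765 ± 191 in controls (SD, n = 6; edgeR, adjusted p = 0.34), and Nfkb2, the precursor processed in the non-canonical pathway that Traf3 restrains, had 488 ± 165 in BDS and 714 ± 310 in controls (adjusted p = 0.38). With TMM 4 of these 9 genes were below 0. Of the MAP kinase genes, Mapk14, a p38 kinase, and Mapkapk2, a kinase that p38 activates, had log2 fold changes of -0.24 ± 0.27 and -0.17 ± 0.12 (SE; edgeR, adjusted p = 0.68 and 0.48). In the arm of type I interferon induction 7 of 8 genes were below 0 at a median of -0.18, and 4 of 8 with TMM. Ddx58, the RNA sensor RIG-I, had 970 ± 172 normalized counts in BDS and 1176 ± 112 in controls (SD, n = 6; edgeR, adjusted p = 0.38). It was at 689 to 931 in those 3 samples, 1024 to 1165 in the other BDS samples and 1021 to 1351 in controls. Ikbke, of the same list, averaged 62.1 in those 3 samples, 54.2 in the other BDS samples and 95.8 in controls. Its control values ran from 41.0 to 270.7. The medians were 60.55 in BDS and 61.6 in controls (edgeR, adjusted p = 0.44).

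**Figure D4:**
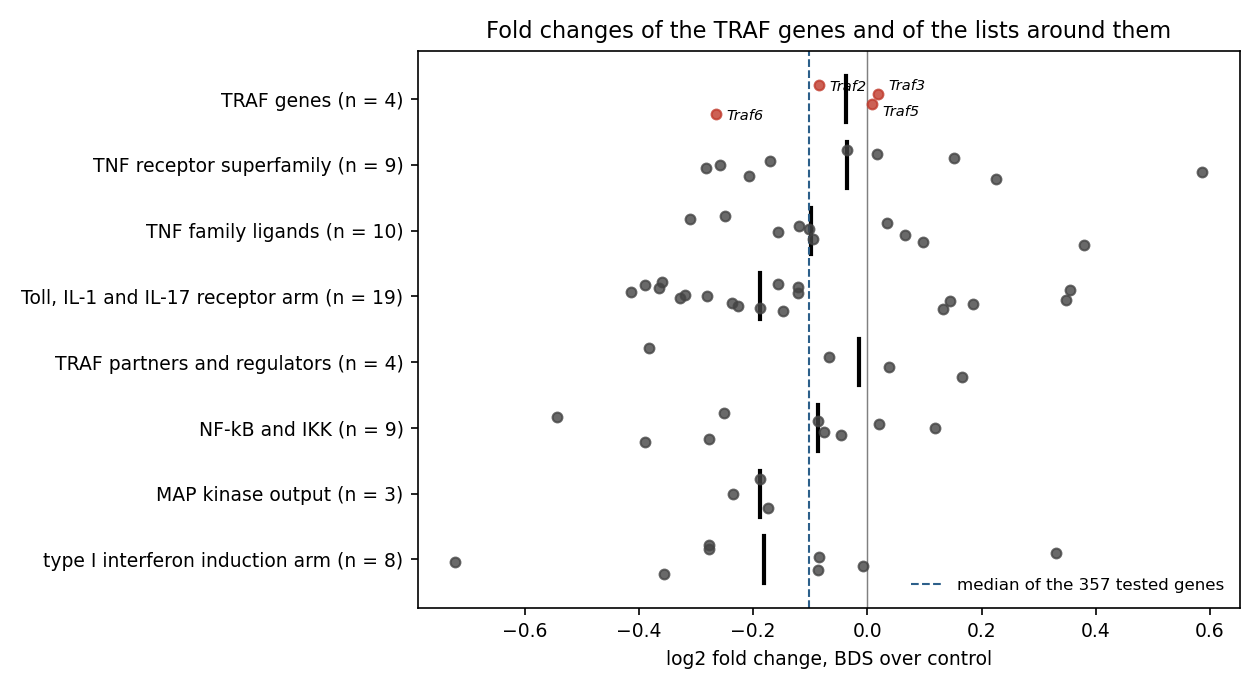
Log2 fold change, BDS over control (x axis), of each tested gene of the TRAF family and of the 7 lists around it (rows; n is the number of tested genes, black bars are list medians, the dashed line is the median of all 357 tested genes). With housekeeping scaling the Toll, interleukin-1 and interleukin-17 list has its median at -0.19 and the TNF receptor list at -0.035.

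The genes that varied most like each TRAF gene were sought by the SD, over the 12 samples, of the log2 ratio of the 2 counts, among 237 genes with a mean of at least 100 normalized counts. For Traf6 these were Tgfbr2, a TGF-beta receptor chain (SD 0.080), Stat5a, a transcription factor of cytokine receptors (0.084), and Notch1, a receptor of cell fate signals (0.098), against a median of 0.279 over the genes compared. Each of the 3 had its lowest values in BDS 21, BDS 25 and BDS 55. Traf6 was lowest there too, so this follows from how the 3 genes were chosen. Stat5a was at 250 to 312 normalized counts there, against 341 to 365 in the other BDS samples and 348 to 405 in controls. Traf2, Traf5 and Traf3 ranked 73, 95 and 149 by the same measure. The samples share the factors above, and likeness in 12 samples says nothing of shared control.

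**Figure D5:**
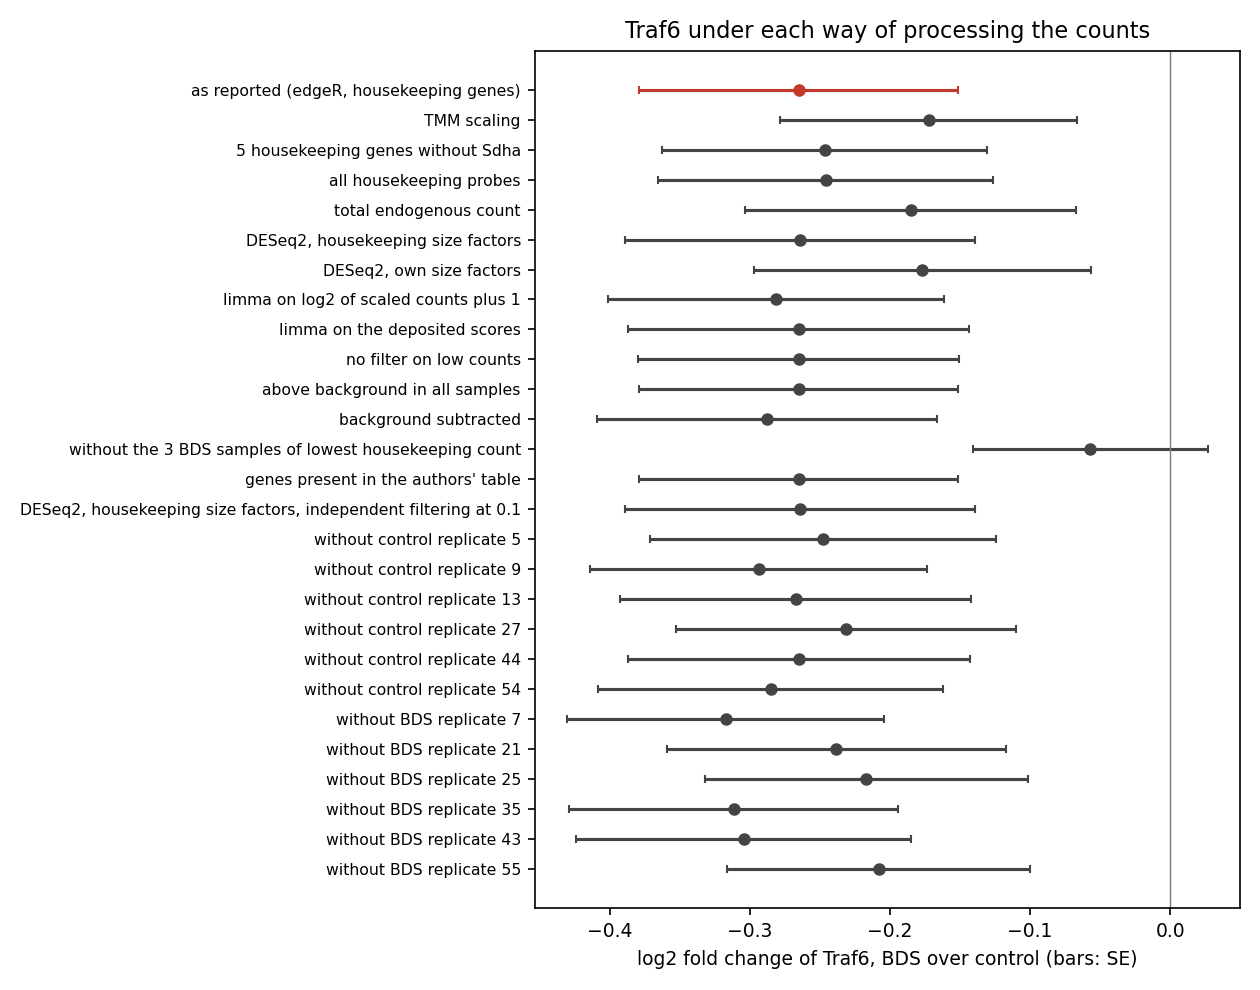
Log2 fold change of Traf6, BDS over control (x axis, bars are SE), under each way of processing the counts (rows). Values run from -0.32 without BDS 7 to -0.057 without the 3 BDS samples of lowest housekeeping count.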

How the data were processed

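Microglial RNA (2 ng per sample) of 6 BDS and 6 control mice was counted with a NanoString nCounter panel. The deposited raw table holds whole-number counts per probe, not normalized by the authors. The deposited normalized values, rounded by the authors and treated as scores, were scaled to positive controls and housekeeping genes per the series' design text. Other columns, named per the file headers, hold the authors' percent of samples above background, their fold and their unadjusted p-value. Reader software was not given in the sources used here.

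Scaling used 6 housekeeping genes (Tbp, Sdha, Polr1b, Oaz1, Gapdh and Alas1) through their geometric mean, relative to its mean over samples. BDS was set against control by the quasi-likelihood test of edgeR 4.0.16 in R 4.3.3, with no covariates, over 357 genes, with Benjamini-Hochberg adjustment at 0.05; SE is the log2 fold change over the square root of F. DESeq2 1.42.0 and limma 3.58.1 (log2 of scaled counts plus 1) were alternatives, beside other scalings, filters, background subtraction and left-out samples. The fit was tested on simulated data.

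The TRAF genes, the lists, the markers and the 3 BDS samples left out were chosen with earlier results of these data known. The text names all TRAF genes, up to 3 genes of smallest p per list and the 3 genes most like a TRAF gene; Cd40 and the markers without signal were named after their values were seen. Some genes of the lists are not reported here.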

Additional observations from a re-analysis of the deposited data

How the results depend on the processing

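The log2 fold change of Traf6 was below 0 under all 26 alternatives, at -0.29 to -0.057 with all changes but single left-out samples and at -0.32 to -0.21 with each sample left out in turn. The median of the tested genes was also below 0 in every setting, at -0.156 to -0.0093, so the sign alone is not particular to Traf6. Without BDS 21, BDS 25 and BDS 55 Traf6 lay above that median, at -0.057 against -0.089. Its unadjusted p was under 0.05 in 15 of 27 settings, the reported one included, and its adjusted p ran from 0.10 to 0.96. The values near 0 of the other genes changed sign. Traf2 was at 0.0073 with TMM and at 0.00055 with DESeq2's own size factors. Traf3 was at -0.016 without BDS 21, BDS 25 and BDS 55, and at -0.029 to 0.081 with single samples left out. Traf5 was at -0.0042 with background subtracted and at -0.047 to 0.073 with single samples left out. The cause of these changes was not tested. With single samples left out, the number of genes past the adjusted threshold was 0 to 4 and that at an unadjusted p under 0.05 was 26 to 96. That count was 27 with DESeq2's own size factors and 20 without the 3 BDS samples, against 44 as reported. DESeq2 with independent filtering set at 0.1, chosen after seeing the data, called 6 genes and left 189 without an adjusted p, and Traf6 had an adjusted p of 0.20 there. No paired analysis was possible because the groups share no sample number.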

Other observations

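The 3 genes that varied most like Traf2 over the 12 samples, by the SD of the log2 ratio of counts, were Prkcd, a protein kinase C (0.074), Il16, a cytokine precursor (0.080), and Fcgr1, a high-affinity IgG receptor (0.093), against a median of 0.231 over 237 genes. For Traf5 they were Ikzf1, the transcription factor Ikaros (0.097), Irf5, an interferon regulatory factor (0.11), and Casp8, the initiator caspase of death receptors (0.11). For Traf3 they were Csf2rb, the shared beta chain of the GM-CSF receptor (0.138), Il6ra, the interleukin-6 receptor chain (0.144), and Mif, a cytokine (0.145). Il16 was at 4735 to 5607 normalized counts in BDS and 5312 to 5842 in controls, and Mif at 589 to 743 in BDS and 550 to 683 in controls. Between TRAF genes the same SD ran from 0.19 for Traf2 and Traf5 to 0.321 for Traf3 and Traf6, so no TRAF gene was among the 3 nearest to another.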
